A study of Mus musculus with 72 samples.

Results

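Mouse hearts collected 16 months after a single whole-body dose of 160 cGy of 137Cs gamma rays were compared with hearts of sham-treated animals of the same experiment. The 160 cGy group held 4 hearts and the Cs sham group 5, which made 9 of the 72 hearts of the series, and membership followed the sample titles alone. All animals were female CB6F1/Hsd mice, 100 to 120 days old when they were obtained, and sham animals were placed in the holders without irradiation. The remaining hearts used here were 15 from mice given 40, 80 or 120 cGy of 137Cs, 5 Ti sham hearts and 4 Si sham hearts, the last 2 groups being the unirradiated controls of titanium and silicon ion experiments. 137Cs served in the study as the low linear energy transfer reference for those ions. Total RNA of each heart was hybridised to a Clariom S Mouse array, and values are log2 signals. Each array was taken as a separate animal, since the labels number replicates within a group and name no shared animal.

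The labels place the arrays in 2 processing batches, and the batches are uneven in this comparison. Cs sham replicates 1 to 3 were in batch 1 and replicates 4 and 5 in batch 2, while all 4 hearts at 160 cGy were labelled batch 1. Replicate 4 at 160 cGy went against its label: on the first principal component, which held 18.4% of the variance, it lay at the batch 2 end, below the lowest labelled batch 2 array by a small margin, whereas the other 15 Cs arrays labelled batch 1 scored from -22.1 to -9.43 and the 8 labelled batch 2 from 16.1 to 26.6. The comparisons were therefore run with this array as labelled, without it, and with it counted to batch 2, and a gene that passed in all 3 fits in the same direction is called stable. A count given alone is for the array as labelled. In each of the 9 hearts 73.8% to 81.7% of genes exceeded the array's median negative control signal. The hearts carried the markers of their label: Myh6, the main adult mouse myosin heavy chain, had 12.17 to 12.40, Myl2 11.90 to 12.46 and Tnnt2 12.33 to 12.69. Markers of adjacent tissue varied widely between hearts, from 4.05 to 11.53 for the atrial light chain Myl7, from 5.05 to 11.98 for albumin and from 3.58 to 7.50 for the adipocyte hormone Adipoq.

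The genes that differed most belong to the circadian clock. In this feedback loop ARNTL (BMAL1) pairs with CLOCK or NPAS2, binds E-box sequences and drives the period, cryptochrome, REV-ERB and DEC repressors, which in turn shut the activators down. REV-ERB proteins silence Arntl and Nfil3 through ROR elements, and DBP, TEF and HLF act through D-boxes, where NFIL3 opposes them. In the heart the loop also drives genes of fuel use, growth signalling and muscle structure, and the mRNA of most of its members rises and falls over the day. The hour at which the hearts were taken was not given in the sources used here.

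Evaluation of differentially expressed genes (DEGs) at an adjusted p < 0.25, the threshold of the study, gave 1342 DEGs of 19494 genes at 160 cGy against Cs sham, or 6.88% (limma with processing batch as a term, Benjamini-Hochberg adjustment). Of these, 607 genes (3.11%) were upregulated and 735 (3.77%) downregulated. At an adjusted p < 0.05, 44 genes (0.226%) remained. The count varied widely with the fit, from 4 when only these 9 arrays were fitted (Arntl, Dbp, Noxred1 and Tcap) and 20 with the values as deposited to 1886 with dim genes left out. Most calls were small, with a median size of 0.38 on the log2 scale, and 11 DEGs changed by more than 1. The count was 1009 without irradiated replicate 4 and 308 with that heart counted to batch 2, and it was 634, 839 and 668 without sham replicate 1, 3 or 4. In all 3 fits of replicate 4, 281 genes (1.44%), 124 up (0.636%) and 157 down (0.805%), were stable. In the values before batch removal, all 4 hearts at 160 cGy lay above the whole Cs sham range for 0.877% of genes and below it for 1.18%. Calls that follow are limma calls at adjusted p < 0.25, each difference is a log2 difference with its standard error, and each heart value is a quantile-normalized log2 signal in replicate order. Counts over a gene list are to be read beside the shares over all genes, 3.11% up and 3.77% down. A list with a share near these does not stand out.

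Arntl, the indispensable activator of the clock, showed the largest difference of all stable genes. Its values at 160 cGy were 5.21, 5.39, 4.91 and 5.29, against 7.59, 7.46, 7.43, 7.09 and 7.75 in the sham hearts. The groups were separated by more than 1 log2 unit, and the spread within each was small (5.20 ± 0.21, SD, n = 4, against 7.46 ± 0.24, n = 5). The fitted difference was -2.25 ± 0.17 (4.77-fold lower, adjusted p = 4.49e-08). The ROR element core TAGGTCA, through which REV-ERB proteins act, lies 31 bases into the Arntl transcript in the RefSeq annotation (GRCm38.p6, chr7:113207530-113207558, plus strand), and is shown because Arntl carries the largest difference, with the element in capitals.
Arntl: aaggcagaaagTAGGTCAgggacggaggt

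Npas2, a partner of ARNTL, had 4.21, 4.63, 4.83 and 4.99 at 160 cGy and 5.42, 5.57, 5.65, 6.05 and 6.02 in the sham hearts, again without overlap (-0.89 ± 0.19, adjusted p = 0.0404). Clock itself had 9.27, 9.26, 9.15 and 8.85 against 9.62, 9.60, 9.61, 9.15 and 9.31. The raw ranges of Clock overlapped, since its signal was lower in batch 2, and the fitted difference with batch as a term was -0.48 ± 0.10 (adjusted p = 0.0321). Thus 3 of 6 measured activator genes were downregulated and none upregulated, in all 3 fits. The other activators did not pass, with 0.26 for the nuclear receptor Rora, 0.31 for Rorb and -0.26 for Arntl2.

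Of 11 measured clock repressors, 8 were upregulated, 1 was downregulated and 2 did not pass. The median difference of the list was 0.60, beside -0.0044 over all genes. Ciart, a repressor of ARNTL and CLOCK, had 6.12, 6.80, 7.16 and 6.85 at 160 cGy and 5.18, 5.65, 4.66, 5.88 and 4.74 in the sham hearts. Every irradiated heart was above every sham heart, and the difference was 1.59 ± 0.24 (3.02-fold, adjusted p = 0.00242). Per3, a period gene, had 7.30, 7.43, 7.76 and 7.25 against 5.94, 6.18, 6.48, 6.64 and 5.55 (1.19 ± 0.21, adjusted p = 0.00955), also without overlap. Bhlhe41 (DEC2), which competes for E-boxes, had 8.22, 8.19, 8.60 and 8.65 against 7.60, 7.63, 7.65, 8.19 and 7.72. Its lowest irradiated heart equalled its highest sham heart to 2 decimals, and the difference was 0.73 ± 0.13 (adjusted p = 0.00939).

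Cry2 was upregulated by 0.77 ± 0.13 (adjusted p = 0.00721), Nr1d1 (REV-ERB alpha) by 0.92 ± 0.20, Per2 by 0.60 ± 0.14 and Nr1d2 (REV-ERB beta) by 0.45 ± 0.12, and all 4 were stable. Bhlhe40 (DEC1) passed with all hearts (0.43 ± 0.13, adjusted p = 0.127) but not with replicate 4 counted to batch 2 (adjusted p = 0.316). Per1 and Cry1 did not pass, at 0.33 ± 0.18 and -0.26 ± 0.15. The repressor that went down was Nfil3, a D-box repressor that REV-ERB proteins hold in check: it had 5.49, 5.31, 5.68 and 5.14 at 160 cGy and 6.04, 6.44, 6.31, 5.82 and 6.10 in the sham hearts. The groups did not overlap, and the difference was -0.81 ± 0.14 (adjusted p = 0.00779).

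The 250 bases before the start of 4 of these genes are shown, from RefSeq on GRCm38.p6, because they carry the elements through which the loop acts. Capitals mark the E-box CACGTG in Ciart (chr3:95882229-95882478) and Bhlhe41 (chr6:145865421-145865670), the D-box TTATGNAA in Per3 (chr4:151044666-151044915) and the reverse complement of the ROR core TAGGTCA in Nfil3 (chr13:52981040-52981289), all on the minus strand and written 5′ to 3′ along the gene.
Ciart: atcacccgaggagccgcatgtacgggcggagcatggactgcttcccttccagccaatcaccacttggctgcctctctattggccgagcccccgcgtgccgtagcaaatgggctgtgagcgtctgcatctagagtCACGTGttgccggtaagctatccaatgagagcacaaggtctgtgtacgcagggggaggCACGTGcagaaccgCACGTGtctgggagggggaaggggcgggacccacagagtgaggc
Bhlhe41: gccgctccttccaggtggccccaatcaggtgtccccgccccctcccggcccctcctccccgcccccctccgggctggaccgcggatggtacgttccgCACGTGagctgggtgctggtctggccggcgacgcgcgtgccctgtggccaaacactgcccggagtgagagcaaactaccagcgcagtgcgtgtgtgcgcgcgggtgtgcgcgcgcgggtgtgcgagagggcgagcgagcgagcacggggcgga
Per3: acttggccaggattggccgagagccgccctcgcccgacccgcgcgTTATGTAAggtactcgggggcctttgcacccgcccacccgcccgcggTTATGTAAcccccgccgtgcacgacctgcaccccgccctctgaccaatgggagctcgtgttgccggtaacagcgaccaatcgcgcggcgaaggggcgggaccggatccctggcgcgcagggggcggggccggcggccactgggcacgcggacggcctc
Nfil3: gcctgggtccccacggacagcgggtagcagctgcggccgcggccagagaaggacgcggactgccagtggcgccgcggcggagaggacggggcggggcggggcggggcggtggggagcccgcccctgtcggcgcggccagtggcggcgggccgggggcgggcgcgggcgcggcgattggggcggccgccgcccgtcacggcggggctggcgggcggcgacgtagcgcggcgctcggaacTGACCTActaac

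Counted from the start of the gene, the E-boxes of Ciart begin at -116, -58 and -44, that of Bhlhe41 at -153, the D-boxes of Per3 at -205 and -158, and the ROR core of Nfil3 at -12. Both strands were searched over windows from 250 bases before to 50 bases after each start, and a gene with several starts was counted if any window held the motif; the 3 motifs do not overlap each other by their letters. The E-box was found in 9.25% of 15683 genes with a promoter sequence, the D-box in 3.68% and the ROR core in 2.62%. Of the 16 clock repressor and output genes that were upregulated, 12 had a promoter sequence. Of these, 5 (41.7%) held the E-box, 1 (8.33%) the D-box and 0 the ROR core. The lists hold known members of the loop, so the E-box share is no test. Among stable genes the share with an E-box was 10.1% of 89 upregulated and 11.2% of 134 downregulated genes, near the share over all genes. A match is a description of letters and not of binding.

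Of 10 measured genes on the clock output list, 8 were upregulated and 1, Leo1, was downregulated. The list was chosen with earlier results of these data known. The study had already named Dbp, Gstt2 and Tspan4 as upregulated at every Cs dose, so the count is a description and not independent support. Dbp, a D-box activator driven directly by ARNTL and CLOCK, had 10.78, 10.77, 10.99 and 11.10 at 160 cGy and 9.15, 9.27, 9.22, 10.13 and 9.05 in the sham hearts. Sham replicate 4 was almost 1 log2 unit above its group and still below every irradiated heart, and the difference was 1.62 ± 0.16 (3.08-fold, adjusted p = 3.26e-06). Gstt2, a glutathione transferase, had 6.63, 6.67, 6.50 and 7.03 against 5.19, 5.96, 5.99, 5.95 and 5.69 (1.09 ± 0.16, adjusted p = 0.00242). Hlf, a relative of Dbp, was upregulated by 0.94 ± 0.20, the tetraspanin Tspan4 by 0.86 ± 0.13 and the mitotic kinase Wee1 by 0.52 ± 0.16, all stable. Tef, another relative of Dbp, was called with all hearts (0.55 ± 0.17, adjusted p = 0.143) and not with replicate 4 in batch 2 (adjusted p = 0.267).

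Within batch 1, 3 sham hearts could be compared with irradiated replicates 1 to 3, and the medians of the clock lists were -0.37 for activators, 0.51 for repressors and 0.57 for outputs. Fewer genes passed there: 2 activators and 1 repressor were downregulated, and 5 repressors and 3 outputs upregulated. Arntl had -2.32 (adjusted p = 7.62e-06), Dbp 1.63 (adjusted p = 7.62e-06) and Per3 1.30 (adjusted p = 0.0336), while Ciart, at 1.53, had an adjusted p of 0.166. Batch 2 held no array labelled 160 cGy, so no value within it can be given.

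**Figure D1:**
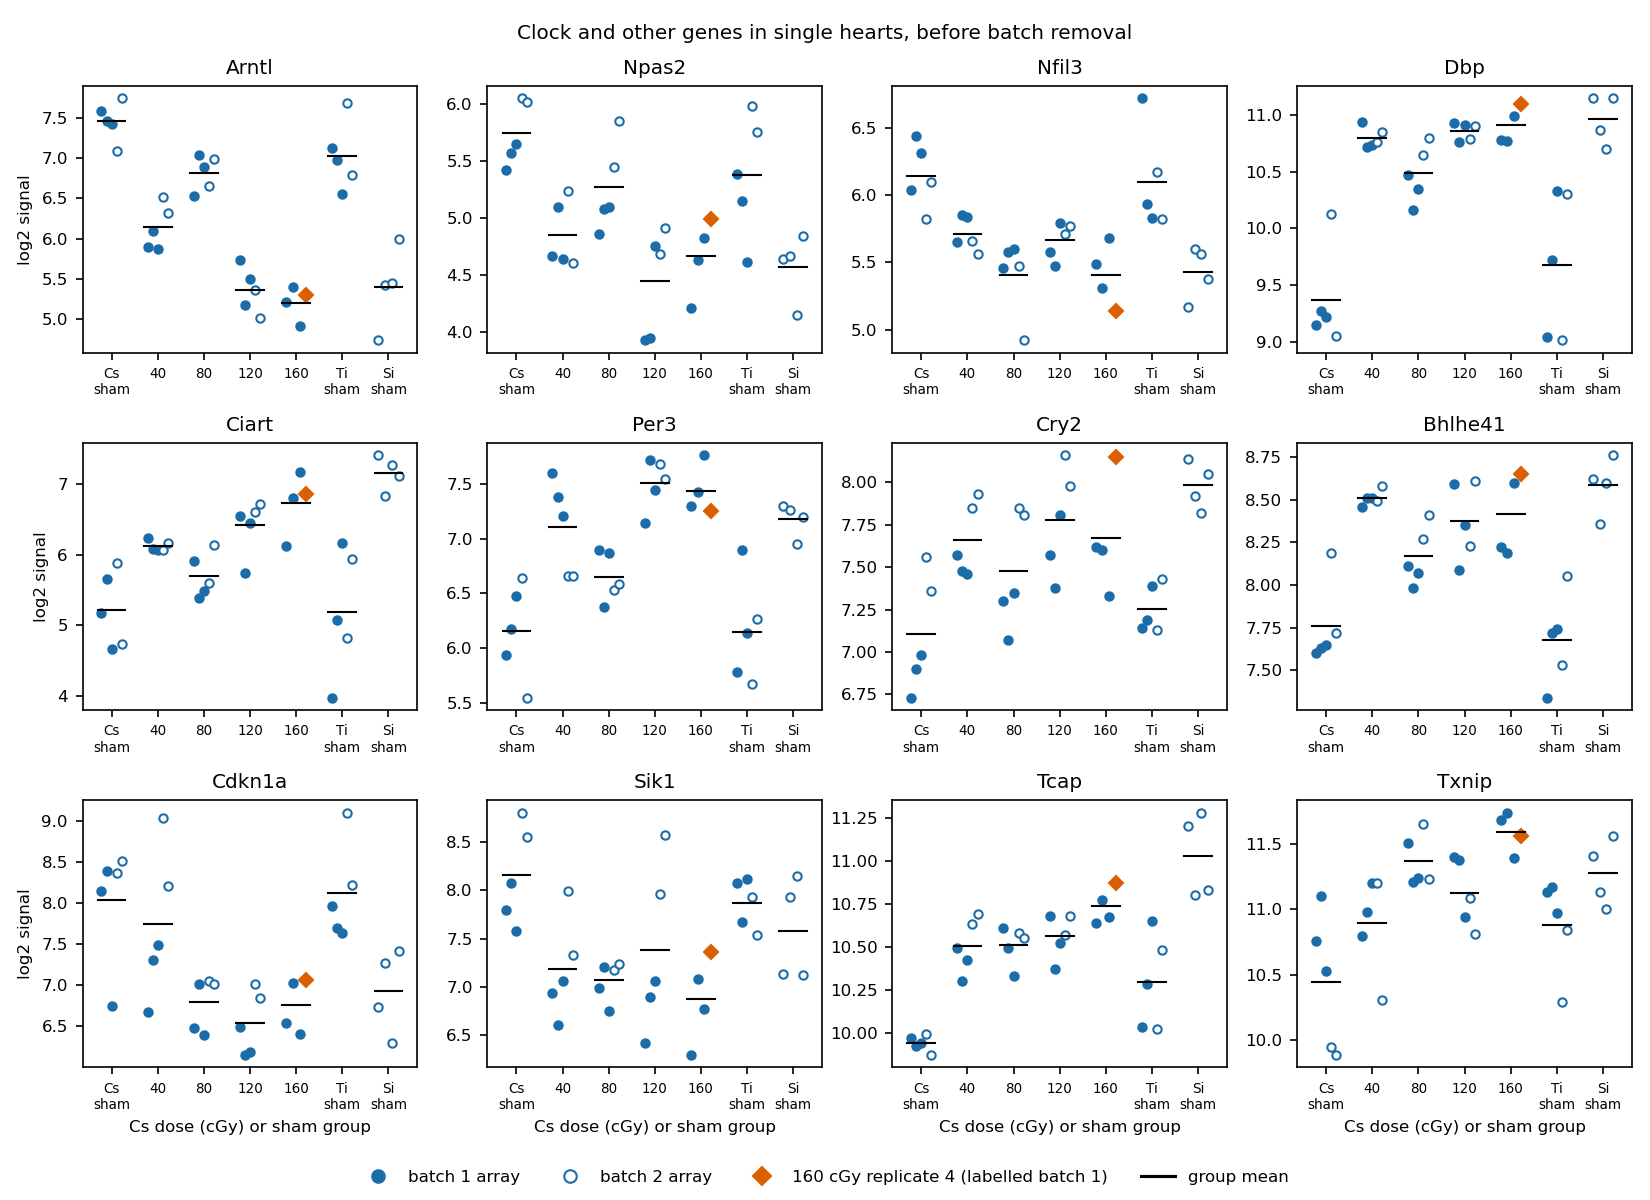
Log2 signal of 12 genes in single hearts before batch removal, by Cs dose in cGy and in the Ti and Si sham groups. Points are hearts (filled for batch 1, open for batch 2, an orange diamond for 160 cGy replicate 4) and lines are group means. Arntl, at 4.91 to 5.39 in the 160 cGy hearts, lies below all Cs sham hearts (7.09 to 7.75) and within the range of the Si sham hearts (4.73 to 6.0).

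The same genes were at intermediate or like levels in the lower dose hearts. Arntl had a mean of 6.14 ± 0.28 (SD, n = 5) at 40 cGy, 6.82 ± 0.22 (n = 5) at 80 cGy and 5.35 ± 0.28 (n = 5) at 120 cGy, so the levels did not fall in the order of dose, and the 120 and 160 cGy hearts overlapped. Against Cs sham the fitted differences of Arntl were -1.32 at 40 cGy (adjusted p = 0.0001), -0.64 at 80 cGy (adjusted p = 0.15) and -2.11 at 120 cGy (adjusted p = 2.48e-08), all sharing the sham hearts with the 160 cGy comparison. Against the mean of the 3 lower doses Arntl was lower at 160 cGy by -0.89 ± 0.14 (adjusted p = 0.0103) and Ciart higher by 0.74 (adjusted p = 0.0933). Dbp did not pass, at 0.27 (adjusted p = 0.359), nor did Per3, at 0.27, Nfil3, at -0.26, or Npas2, at -0.0040.

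Unirradiated hearts of the other experiments held the clock at different levels. Arntl had a mean of 7.03 ± 0.43 (SD, n = 5) in Ti sham hearts, with a range of 6.55 to 7.69, and 5.40 ± 0.52 (n = 4) in Si sham hearts. The 160 cGy hearts differed from Ti sham hearts in Arntl by -1.75 (adjusted p = 0.00574) and from Si sham hearts by 0.0060 (adjusted p = 0.996). Dbp had 9.68 ± 0.65 in Ti sham and 10.97 ± 0.22 in Si sham hearts, beside 10.91 ± 0.16 at 160 cGy. None of the 27 measured genes on the 3 clock lists passed against Si sham, whereas 6 repressors and outputs were higher and 1 activator lower than in Ti sham. All Si sham arrays were in batch 2 and no batch held both groups, so that comparison rests on batch differences estimated in other groups.

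Several genes of growth control and stimulus response were downregulated. Cdkn1a, the CDK inhibitor p21, had 6.54, 7.03, 6.40 and 7.06 at 160 cGy and 8.15, 8.39, 6.74, 8.37 and 8.51 in the sham hearts. Sham replicate 3 lay among the irradiated hearts while the other sham hearts were all above 8, and the difference was -0.95 ± 0.29 (adjusted p = 0.133). Sik1, a salt-inducible kinase, had 6.30, 7.08, 6.77 and 7.36 against 7.79, 8.07, 7.58, 8.80 and 8.55 (-0.95 ± 0.24, adjusted p = 0.0835), without overlap. Nr4a1, an orphan nuclear receptor of the immediate early class, had 5.60, 6.40, 5.87 and 6.31 against 6.75, 7.13, 6.98, 8.17 and 7.62 (-0.96 ± 0.28, adjusted p = 0.128), also without overlap.

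Of 20 immediate early genes, 4 were downregulated, Nr4a1, Atf3 (-0.61 ± 0.14), Klf4 (-0.36 ± 0.12) and Fosb (-0.43 ± 0.17), and Ier3 was upregulated (0.56 ± 0.15). The list median was -0.33 and all but Fosb were stable. Errfi1, a feedback inhibitor of the EGF receptor, had 5.73, 6.79, 6.59 and 6.98 against 7.45, 7.70, 7.08, 7.98 and 7.84 (-0.87 ± 0.19, adjusted p = 0.051). Irs1, the insulin receptor adaptor, had 5.45, 5.82, 5.83 and 6.06 against 6.77, 6.45, 6.35, 6.80 and 6.94 (-0.70 ± 0.14, adjusted p = 0.0321). Both genes were lower in every irradiated heart than in any sham heart.

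Among 20 growth signal and insulin pathway genes, 3 were downregulated, Errfi1, Irs1 and the calcineurin regulator Rcan1 (-0.50 ± 0.14), and 3 upregulated. The upregulated members were Pik3ip1, an inhibitor of PI3 kinase (0.64 ± 0.15), the mTOR inhibitor Deptor (0.48 ± 0.14) and the translation repressor Eif4ebp1 (0.26 ± 0.10). Deptor lost its call without replicate 4 (adjusted p = 0.297). Slc41a3, a magnesium transporter relative, was downregulated by -0.62 ± 0.14 (adjusted p = 0.0592), while its relative Slc41a1, chosen after its values were seen, was upregulated by 0.52 ± 0.10 (adjusted p = 0.0321). By qRT-PCR the study reported Slc41a3, Cdkn1a, Arntl and Bhlhe41 as upregulated after Cs exposure. Of these only Bhlhe41 was upregulated here, and the study's discussion describes Arntl as falling with Cs dose.

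Against the lower doses, Cdkn1a did not pass, at 0.057 (adjusted p = 0.947), nor did Sik1, at -0.0020, Nr4a1, at -0.12, or Errfi1, at -0.013. Irs1 was lower than at the lower doses by -0.32 (adjusted p = 0.221). Thus the growth genes differed from the Cs sham hearts, and among these 5 genes Irs1 alone passed against the lower doses.

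Muscle genes held a clear difference in Tcap (telethonin), which caps titin at the Z-disc. It had 10.64, 10.77, 10.67 and 10.87 at 160 cGy and 9.97, 9.92, 9.94, 9.99 and 9.87 in the sham hearts. The sham hearts were tight, from 9.87 to 9.99, and every irradiated heart was above them. The difference was 0.85 ± 0.09 (1.80-fold, adjusted p = 9.47e-06). The lower dose hearts ranged from 10.30 to 10.69 with a median of 10.55, and 160 cGy exceeded their mean by 0.25 (adjusted p = 0.117). Klhl38, a kelch family gene of striated muscle chosen after its values were seen, had 8.63, 8.48, 8.55 and 8.66 against 7.74, 7.88, 8.04, 8.18 and 8.24 (0.76 ± 0.10, adjusted p = 0.000371).

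Of 21 ventricular sarcomere genes, Tcap and the essential light chain Myl3 passed, the latter downregulated by -0.30 ± 0.08 (adjusted p = 0.0887). Myl3 had 11.65, 11.66, 11.67 and 11.42 against 11.90, 11.87, 11.87, 11.69 and 11.74, with replicate 4 the lowest and no overlap. Of 23 calcium handling and channel genes, the inward rectifier Kcnj2 was upregulated (0.40 ± 0.13) and the potassium channel Kcna5 (-0.50 ± 0.16) and the gap junction gene Gja1 (-0.30 ± 0.09) were downregulated, Kcna5 not stably. Of 14 cardiac stress genes only the stretch-responsive Ankrd1 passed (0.28 ± 0.11, adjusted p = 0.232), and it was not stable.

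Of 26 fasting and fat oxidation genes 7 were upregulated and none downregulated, but the number fell to 5 without replicate 4 and to 1, Angptl4, with it counted to batch 2. Ucp3, a mitochondrial carrier induced in fasting, had 8.36, 9.11, 8.39 and 8.57 against 6.76, 7.99, 7.85, 7.66 and 8.19 (1.24 ± 0.35, adjusted p = 0.107). Pdk4, which blocks glucose entry into the citric acid cycle, had 10.53, 10.42, 9.87 and 10.68 against 9.11, 10.34, 9.41, 9.11 and 10.18 (1.04 ± 0.33, adjusted p = 0.164). Ucp3 showed no overlap and Pdk4 overlapped in replicate 3. The other 5 were Angptl4 (0.80), Acot2 (0.68), the carnitine transferases Cpt1a (0.42) and Cpt2 (0.29), and the lipid droplet gene Plin2 (0.36).

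Txnip, an inhibitor of glucose uptake, had 11.68, 11.74, 11.39 and 11.56 at 160 cGy and 10.76, 11.10, 10.53, 9.95 and 9.89 in the sham hearts. It was stable and without overlap (1.02 ± 0.20, adjusted p = 0.0261). Scd4, a heart-expressed stearoyl-CoA desaturase, had 7.79, 7.82, 6.82 and 8.52 against 6.15, 6.80, 6.67, 6.87 and 7.47 (1.21 ± 0.27, adjusted p = 0.0545). Scd4 was also higher than at the lower doses, by 1.15 (adjusted p = 0.0268). Mid1ip1, which promotes fatty acid synthesis, was upregulated by 0.72 ± 0.15, and Hk1 (-0.33 ± 0.10) and the glycogen regulator Ppp1r3c (-0.34 ± 0.12) were downregulated, Hk1 not stably.

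Genes of the respiratory chain were called downward, and these calls depended on how replicate 4 was treated. Of 36 complex I genes 12 were downregulated and none upregulated, with a median of -0.16. Without replicate 4 there was 1 and with it in batch 2 there were 0. The mean log2 signal of the list was 10.18, 10.14, 10.19 and 9.89 in the irradiated hearts and 10.27, 10.19, 10.25, 9.97 and 9.95 in the sham hearts. Replicate 4 thus lay beside sham replicates 4 and 5, and below the lower dose hearts of batch 1 (10.21 to 10.29), among those of batch 2 (9.83 to 10.03). In 28 of the 36 genes replicate 4 was the lowest of the 4 irradiated hearts.

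Ndufb3, an accessory subunit, shows the pattern in a single gene: 8.66, 8.65, 8.76 and 8.03 at 160 cGy against 8.94, 8.80, 8.85, 8.24 and 8.05. Its call (-0.36 ± 0.13, adjusted p = 0.209) was lost without replicate 4 (-0.20, adjusted p = 0.465). Complexes III to V had 5 of 36 genes down, the mitochondrial ribosome 7 of 30 and the proteasome 5 of 30, with none up. Without replicate 4 they had 3, 1 and 4 genes down (and 1, 0 and 1 up), and with it in batch 2 they had 0, 1 and 0 down. Mrpl19, a protein of the large mitochondrial ribosomal subunit, was the stable exception, with 7.32, 7.53, 7.63 and 7.43 against 7.94, 7.83, 7.73, 7.95 and 7.78 (-0.45 ± 0.10, adjusted p = 0.053). Psma6, a proteasome core subunit, had -0.45 ± 0.09 (adjusted p = 0.0321), which became -0.28 (adjusted p = 0.269) with replicate 4 in batch 2.

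**Figure D2:**
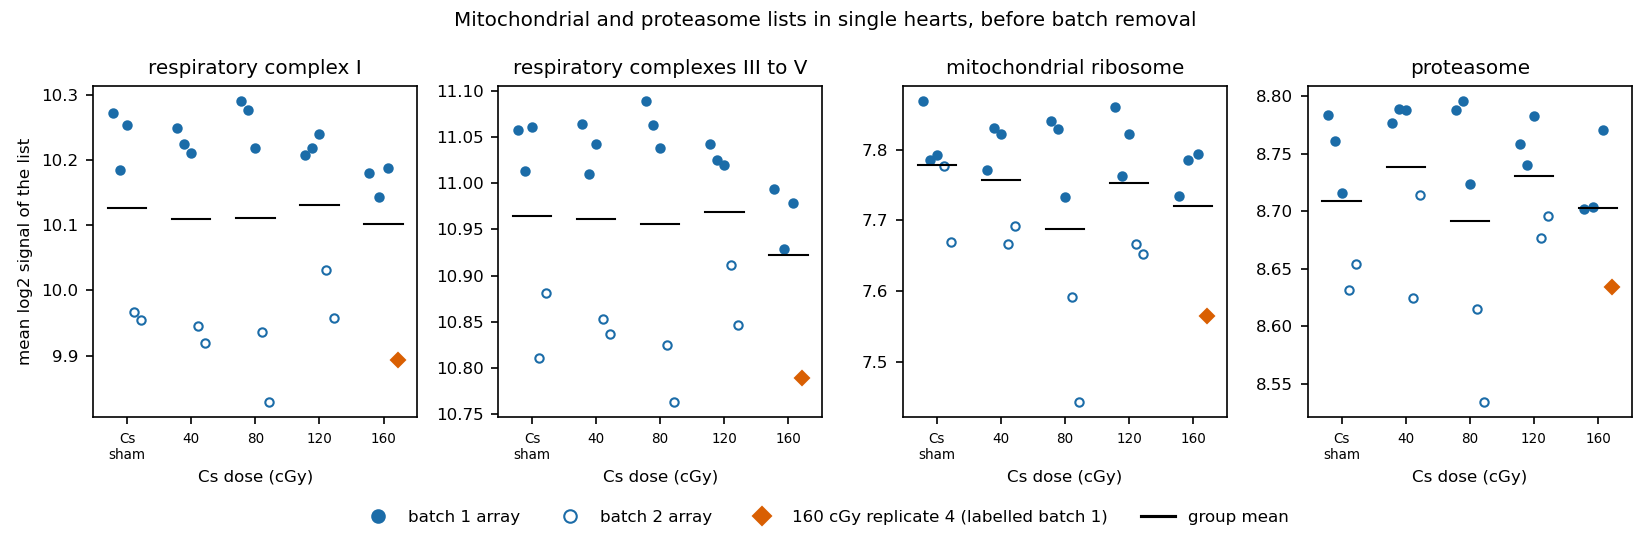
Mean log2 signal of 4 gene lists in single Cs hearts before batch removal, by dose in cGy, with batch 1 filled, batch 2 open and 160 cGy replicate 4 as an orange diamond; lines are group means. For complex I, replicate 4 at 9.89 lies among the batch 2 hearts, and the other irradiated hearts (10.14 to 10.19) lie at the lower end of the batch 1 sham hearts (10.19 to 10.27) or below them.

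Of 22 p53 targets, genes of the DNA damage response, 4 were downregulated and none upregulated, namely Cdkn1a, Pmaip1 (-0.51 ± 0.18), Rrm2b (-0.23 ± 0.09) and Ei24 (-0.23 ± 0.09), and only Cdkn1a was stable. Without replicate 4 there were 4 down and 1 up, and with it in batch 2 there was 1 down. Mdm2, the feedback inhibitor of p53, did not pass (-0.078 ± 0.086, adjusted p = 0.769), nor did Ccng1 (-0.20 ± 0.08, adjusted p = 0.275). Of 27 DNA repair genes 1 was up and 1 down, near the shares of 3.11% and 3.77% over all genes, and none was stable. The genome maintenance genes Smc6 and Wrn, outside the list and chosen after their values were seen, were stable. Smc6, of the SMC5/6 complex, had 5.93, 6.08, 6.53 and 6.31 against 7.0, 6.71, 6.97, 6.64 and 6.34 (-0.71 ± 0.15, adjusted p = 0.0399), and the helicase gene Wrn was lower by -0.62 ± 0.16 (adjusted p = 0.0832). None of 17 cell cycle genes passed.

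Genes of iron handling went in both directions. Tfrc, the transferrin receptor, had 6.67, 6.88, 6.63 and 6.58 at 160 cGy and 7.30, 6.87, 7.90, 8.49 and 7.77 in the sham hearts. The irradiated hearts were tight and sham replicate 2 was at their level (-0.98 ± 0.24, adjusted p = 0.0756). Aco1, the iron-sensing aconitase, was downregulated by -0.35 ± 0.11 and stable, and Alas1, of heme synthesis, by -0.28 ± 0.10 and not stable. The iron exporter Slc40a1 (0.41 ± 0.15) and the erythroid heme gene Alas2 (0.95 ± 0.31) were upregulated, not stably. Alas2 had 6.76, 8.68, 8.40 and 8.21, so that replicate 1 lay below all sham hearts (6.92 to 7.34) and the other 3 above.

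Of 25 collagen and matrix genes, Fn1 (0.50 ± 0.19) and Timp3 (0.78 ± 0.22) were upregulated and Spon2 (-0.49 ± 0.17) and the metalloproteinase Adam19 (-0.33 ± 0.11) downregulated. Adam19 alone was stable, and Timp3 rested on replicate 4, which had 9.02 beside 7.87 to 7.99 in the other irradiated hearts. Inflammatory genes were mostly not called, and 6.88% of all genes were. Of 23 chemokines and cytokines 2 were upregulated, both stably: Ccl11 (eotaxin), with 7.25, 6.52, 6.88 and 7.05 against 5.36, 6.14, 6.15, 6.24 and 5.92 (0.98 ± 0.19, adjusted p = 0.0261), and the alarmin Il33 (0.55 ± 0.13, adjusted p = 0.0756). Neither overlapped between the groups. The macrophage growth factor Csf1 was upregulated by 0.45 ± 0.10, the only call among 18 macrophage genes, and Serping1, the C1 inhibitor, chosen after its values were seen, by 0.57 ± 0.11 (adjusted p = 0.0241). None of 13 MHC genes passed, and of 26 interferon-stimulated genes only Mx1 did, which was at or below the negative control median in all 9 hearts and is given no fold. Ephx1, a xenobiotic epoxide hydrolase, was upregulated by 0.55 ± 0.12 (adjusted p = 0.0545).

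The remaining genes with the largest stable differences fell into other classes. Noxred1, an oxidoreductase-like gene, had 4.11, 3.91, 3.63 and 3.82 against 5.18, 5.64, 5.07, 4.09 and 3.67, high in the 3 batch 1 sham hearts only (-1.04 ± 0.29, adjusted p = 0.110). The water channel Aqp6 (-0.82 ± 0.19) and the cytokine Clcf1 (-0.76 ± 0.17) were lower in every irradiated heart than in any sham heart. Noxred1 and Clcf1 were dim and did not reach a log2 signal of 5 on 4 or more of the Cs arrays. The olfactory receptor Olfr513 had 2.57, 2.78, 2.98 and 2.18 at 160 cGy, all at or below the negative control median, and is given no fold.

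**Figure D3:**
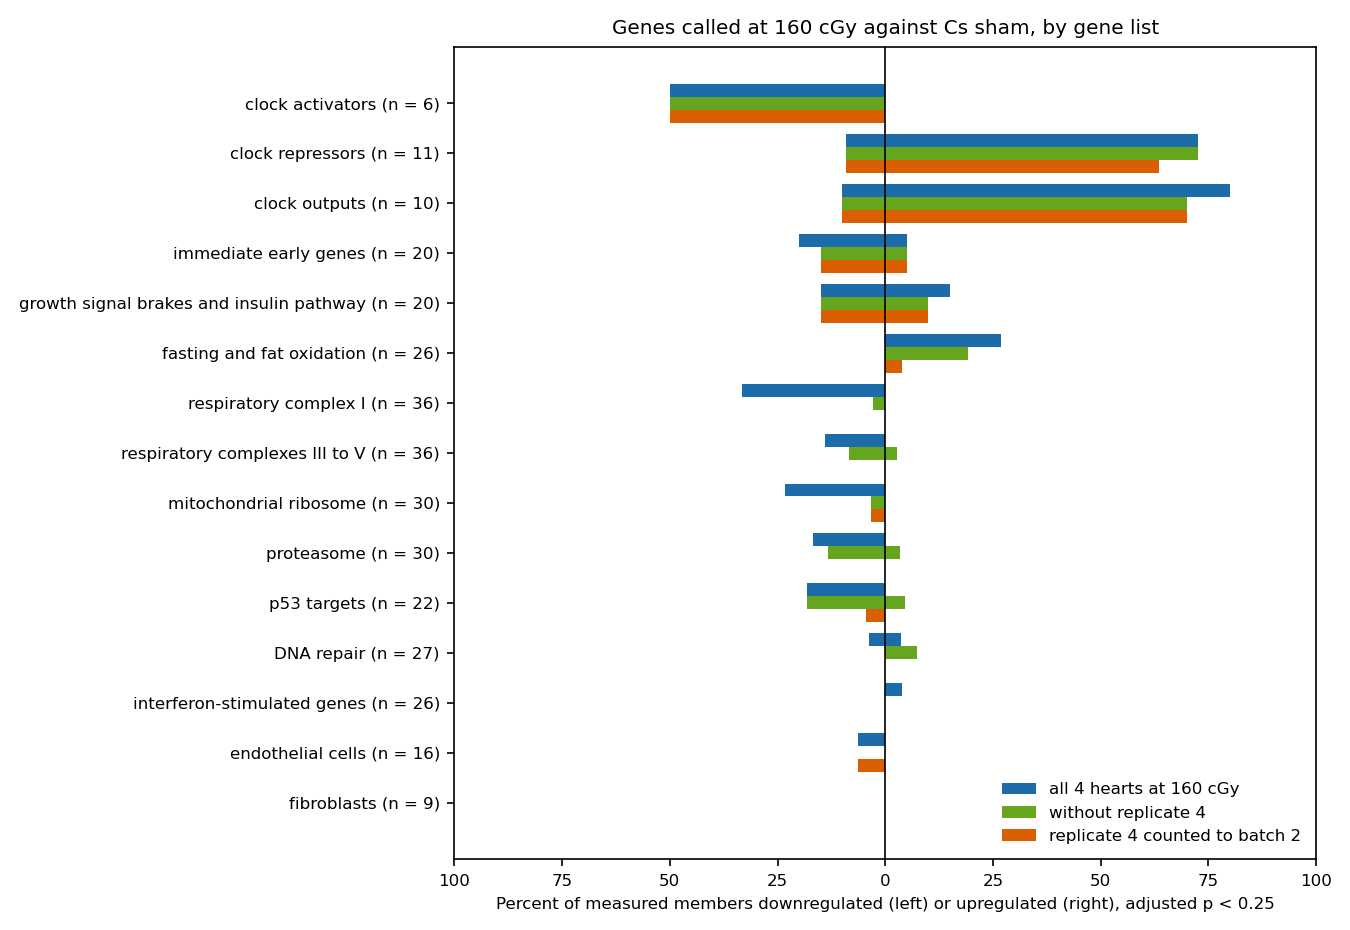
Percent of the measured members of 15 gene lists that were downregulated (left) or upregulated (right) at 160 cGy against Cs sham at adjusted p < 0.25, with all 4 hearts, without replicate 4, and with it counted to batch 2. The clock activator bar keeps its length in all 3 fits (3 of 6 down in each), while complex I goes from 12 of 36 down to 1 and to 0.

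Markers of cell types gave few calls. Over 15 cell type lists, the mean log2 signal of each list per heart, after batch removal, was compared between 4 and 5 hearts by a two-sided exact permutation test, in which the smallest p is 0.00794. No list passed after adjustment over the 15 lists. The lowest p was 0.0159 (adjusted 0.238) for the erythroid list, of which 2 genes were measured, with 7.57 ± 0.41 (SD) at 160 cGy and 7.08 ± 0.10 in sham hearts. The B and plasma cell list had an exact permutation p = 0.0397 (adjusted 0.298) at 3.93 ± 0.14 against 3.69 ± 0.14, near the negative control median. Fibroblast (-0.023), endothelial (0.011) and ventricular sarcomere (-0.0070) scores differed by less than the spread between hearts. The atrial list differed most in size, by 0.63 (exact p = 0.27). It had 7.80 to 9.87 at 160 cGy and 7.31 to 9.17 in sham hearts. With replicate 4 in batch 2 it differed by 0.81 (exact p = 0.214). The median over the atrial genes was 0.59 with all hearts and 0.11 without replicate 4. Adipocyte genes differed by -0.58 (exact p = 0.23), with 5.63 to 7.32 at 160 cGy and 6.12 to 7.54 in sham hearts. With replicate 4 in batch 2 they differed by -0.222 (exact p = 0.746). The highest irradiated heart, at 7.32, was replicate 4. The median difference over the adipocyte list was -0.49 with all hearts, -0.97 without replicate 4 and -0.09 with it in batch 2. No adipocyte gene passed in any of these fits. The part of these cells in the gene differences was not tested, and fewer cells of a type cannot be told apart from less RNA per cell in whole heart tissue. Beside Tcap, Myl3, Csf1 and Alas2, given above, the called genes of these lists were Cldn5 (-0.56, a tight junction gene of endothelium), the atrial list gene Nr2f2 (0.63), Ncam1 of the Schwann cell and neuron list (0.89) and Atp2a1 of the skeletal muscle list (0.49), none of the last 4 stable.

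A dim multicopy family on the X chromosome separated 160 cGy replicates 1 to 3 from the other Cs hearts, though not from all hearts of the series. Btbd35f genes are near-identical copies, so that probe sets may share targets and are not independent, and 16 of 22 were at or below the negative control median in all sham hearts. The family mean was 3.79, 3.51, 3.89 and 2.86 at 160 cGy and 2.93, 3.21, 2.99, 2.81 and 2.73 in the sham hearts, so replicate 4 lay in the sham range. Of the 22, 10 were called upward, 16 without replicate 4 and 8 with it in batch 2. Btbd35f9, above the negative median in all 9 hearts and among the 5 highest against the lower doses, had 5.07, 4.57, 5.31 and 4.02 against 3.76, 4.55, 3.83, 3.90 and 3.56 (0.77 ± 0.24, adjusted p = 0.142), and Btbd35f20 differed by 0.76 ± 0.25 (adjusted p = 0.182). Btbd35f14, Btbd35f16 and Btbd35f18, among the largest stable calls, were below the negative median in all sham hearts and are given no fold. Among the other 68 arrays of the series 4 had a family mean above that of irradiated replicate 2, and the highest, at 4.38, was above every 160 cGy heart. Vomeronasal receptors of the Vmn1r family were dim as well, with 18 up and 1 down of 199, of which 16 calls were for genes at or below the negative median in every sham heart.

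**Figure D4:**
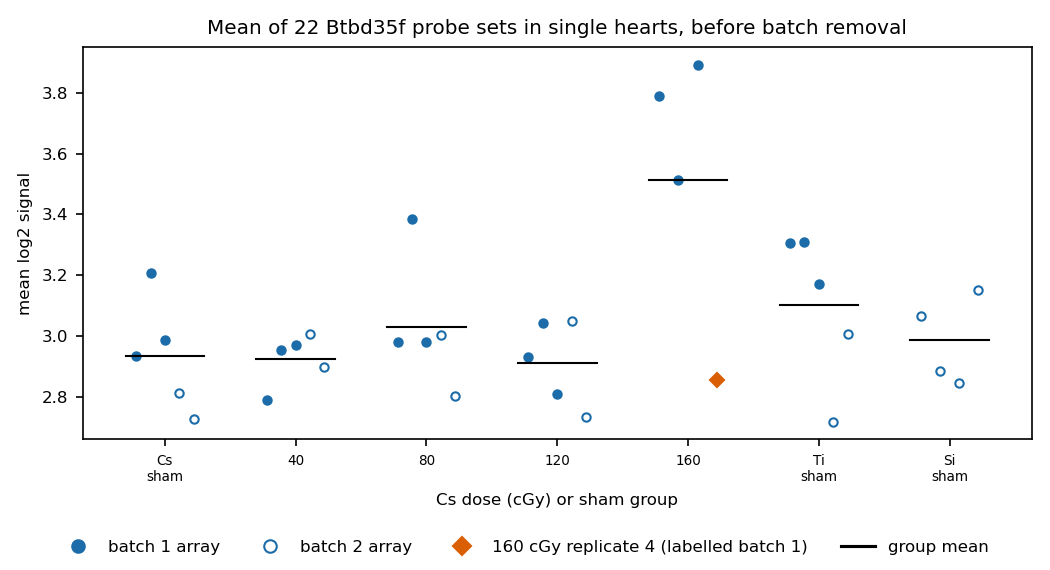
Mean log2 signal of 22 Btbd35f probe sets in single hearts before batch removal, by Cs dose in cGy and in the Ti and Si sham groups (batch 1 filled, batch 2 open, 160 cGy replicate 4 as an orange diamond, lines for means). Irradiated replicates 1 to 3 have 3.51 to 3.89, and replicate 4 has 2.86, within the Cs sham range of 2.73 to 3.21.

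The 160 cGy hearts were next compared with the 15 hearts given lower doses, a contrast without the sham hearts. This gave 1514 DEGs (7.77%), 695 up (3.57%) and 819 down (4.2%), with 1650 without replicate 4 and 242 when it was counted to batch 2, and 219 (1.12%) were stable. Each of the lower doses gave fewer DEGs against Cs sham: 43 at 40 cGy (0.221%), 94 at 80 cGy (0.482%) and 133 at 120 cGy (0.682%). These counts stand beside 1342 at 160 cGy, or 308 with replicate 4 counted to batch 2. The lower dose groups held 3 arrays of batch 1 and 2 of batch 2 each, unlike the 160 cGy group, so the counts are not like for like. Both comparisons use the 160 cGy hearts, and 78 genes (0.4%), 44 up and 34 down, were stable in both in the same direction. Mapkapk2, a stress kinase chosen after its values were seen, had 5.19, 5.41, 5.20 and 5.61 at 160 cGy, against 5.67 to 6.34 with a median of 5.94 at the lower doses and 6.08, 6.02, 5.89, 5.90 and 5.71 in the sham hearts. It was below every heart of both other groups, by -0.65 against the lower doses (adjusted p = 0.00277) and by -0.62 ± 0.11 against Cs sham (adjusted p = 0.00939).

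Mtch1, a mitochondrial outer membrane gene, had 7.46, 7.55, 7.65 and 7.58 at 160 cGy and differed by -0.70 from the lower doses (adjusted p = 0.000108), where it ranged from 7.28 to 8.63. Against Cs sham it had 8.17, 8.04, 8.19, 7.34 and 7.44 in the sham hearts, low in batch 2, and its call (-0.56 ± 0.09, adjusted p = 0.00721) was lost with replicate 4 in batch 2 (adjusted p = 0.274). The other genes with the largest differences downward were Arntl, the lymphocyte receptor Cd226 (-0.87, adjusted p = 0.105), Zfp472 (-0.76) and Tspan8 (-0.67), and the last 3 did not pass against Cs sham. Respiratory complex I had 15 of 36 genes lower than at the lower doses, 8 lower and 2 higher without replicate 4, and 2 lower with it in batch 2. Isg20, an exonuclease chosen after its values were seen, was higher by 0.66 (adjusted p = 0.0932) than at the lower doses and by 0.84 ± 0.21 than in Cs sham (adjusted p = 0.0849).

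Against the sham groups of the other experiments the counts differed. The 160 cGy hearts had 36 DEGs (0.185%), 14 up (0.0718%) and 22 down (0.113%), against Ti sham and 932 (4.78%), 456 up (2.34%) and 476 down (2.44%), against Si sham, in a fit of all 72 arrays. Without replicate 4 these counts were 42 and 139, and with it in batch 2 they were 47 and 255. The unirradiated groups also differed from each other, with 22 DEGs (0.113%) between Cs sham and Ti sham and 1108 (5.68%) between Cs sham and Si sham. Arntl, Ciart, Per3, Gstt2, Cry2, Bhlhe41, Klhl38 and Slc41a3 passed against Ti sham in the same direction as against Cs sham. Tcap did not (0.51, adjusted p = 0.339), nor did Txnip (0.64, adjusted p = 0.339) or Cdkn1a (-1.05, adjusted p = 0.292). Against Si sham, Tcap differed by -0.14 (adjusted p = 0.806), Cdkn1a by 0.60 (adjusted p = 0.457) and Txnip by 0.13 (adjusted p = 0.851). Scd4 (0.99, adjusted p = 0.160), Serping1 (0.51, adjusted p = 0.141) and Smc6 (-0.51, adjusted p = 0.169) passed against Si sham, with replicate 4 as labelled, in their direction against Cs sham.

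**Figure D5:**
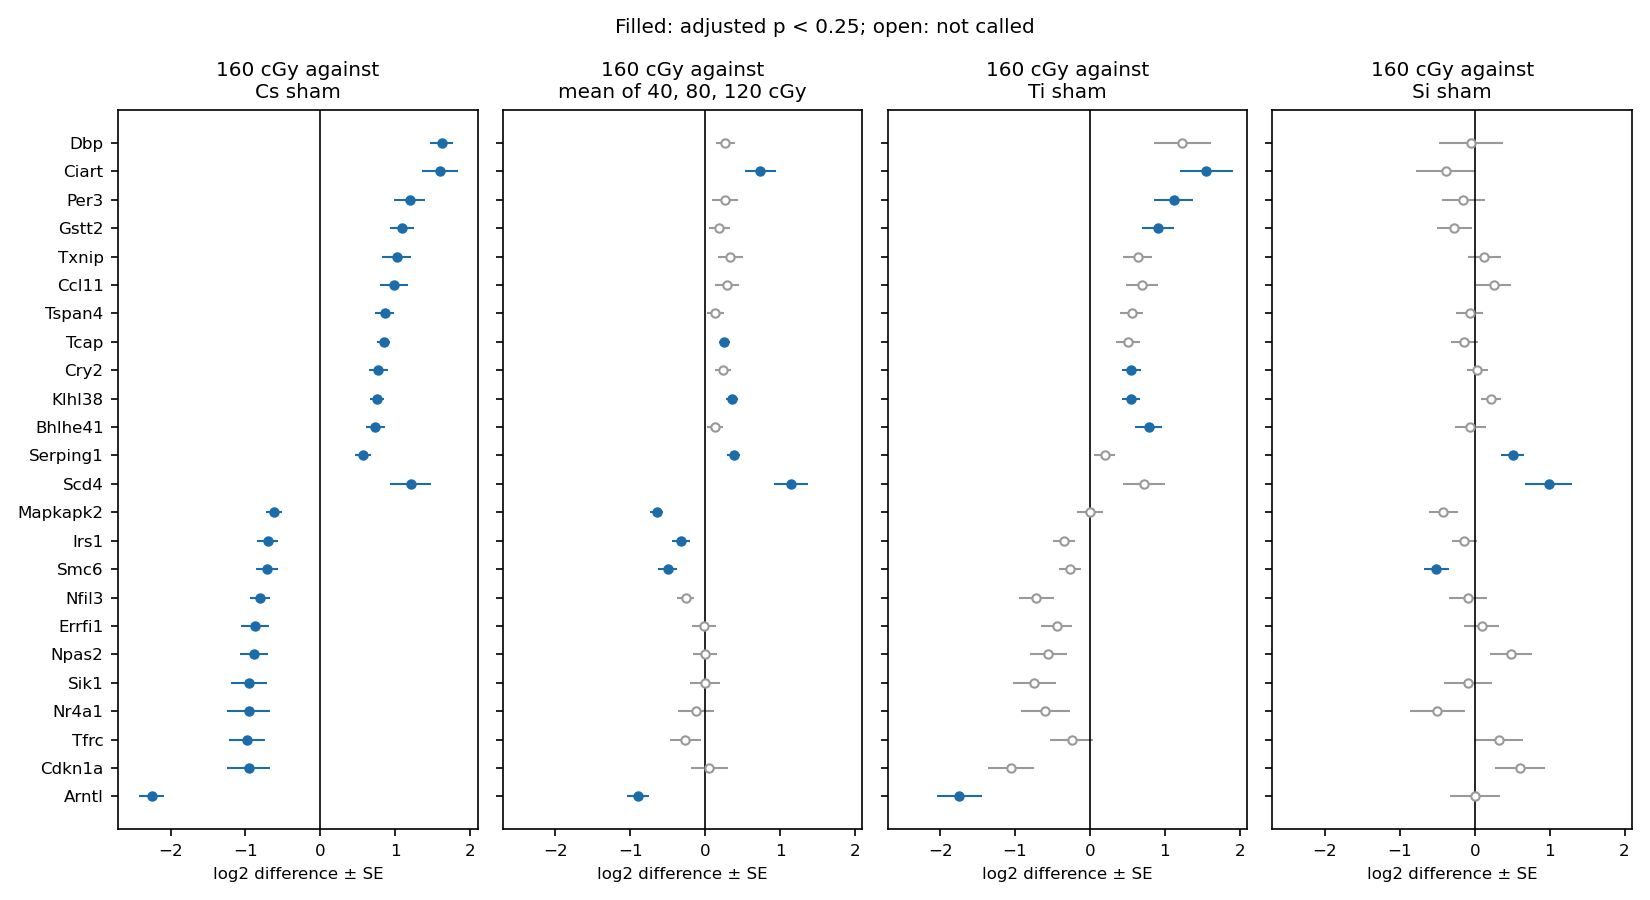
Log2 difference ± SE (limma) of 24 genes at 160 cGy against Cs sham, the mean of 40, 80 and 120 cGy, Ti sham and Si sham; filled points have adjusted p < 0.25. Arntl differs by -2.25 from Cs sham and by 0.0060 from Si sham, and Scd4 by 1.21 and 0.99.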

How the data were processed

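The authors ran RMA on 72 Clariom S Mouse arrays, a method that corrects background, normalizes by quantiles and summarises probes, and deposited log2 signals for 29129 probe sets. Their methods also describe normalization by signal space transformation in Expression Console, and they name no version for RMA. Array medians still differed (4.38 to 6.04 over the 9 hearts), so the 22142 transcript cluster probe sets were quantile normalized again over all 72 arrays. Of these, 19527 had 1 gene symbol in the platform annotation, 0 had several and 2615 had none. For 33 genes with several probe sets the brightest was kept, which left 19494 genes.

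limma 3.58.1 in R 4.3.3 was fitted to the 24 Cs arrays with dose group and labelled processing batch as terms, with moderated two-sided tests and Benjamini-Hochberg adjustment over all genes. The Ti and Si sham comparisons used all 72 arrays. Depth does not apply to arrays, and precision is limited by their number. The limma p-values set each difference against the moderated spread within groups over all arrays fitted, 24 or 72, and not that of the compared hearts alone. Background was taken from 5222 negative control probe sets, and a gene at or below their median on every array of a group was given no fold.

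The members, the 47 gene lists and the rules were chosen with earlier results of these data known. Genes were named as the 12 highest and 12 lowest stable differences, the called members of a list with its defining members, the 5 highest and 5 lowest against the lower doses, and the 12 genes that the study names as common to its radiation types. Of 876 list entries 800 were measured, 4 of them under another symbol. In simulated data with 200 changed genes for 160 cGy against Cs sham over 19494 genes, 96% of changes of 1 log2 unit and 65% of changes of 0.5 were recovered, with 73 false calls among 234. Recovery with replicate 4 lying off its labelled batch, as in the measured hearts, was not tested. Alternatives were replicate 4 left out or counted to batch 2, no batch term, batch 1 alone, replicate numbers as a block, other sets of arrays, the values as deposited, aligned medians, moderation with trend and robust options, only genes reaching a log2 signal of 5 on 4 or more arrays, a threshold of 0.05 and each array left out. Python 3 scripts with pandas summarised the fits.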

Additional observations from a re-analysis of the deposited data

Results flagged for a closer look

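In 11 of 216 groups of 4 or 5 hearts, 1 heart lay far from the rest of its group after removal of the batch difference. Chance passes this test in about 1 of 20 groups, and the count was near that share. Of these, 5 were irradiated hearts, 4 of them replicate 4, and 6 were sham hearts. Replicate 4 at 160 cGy was low in Myl3 (11.42, beside 11.65 to 11.67 in the other irradiated hearts) and in Ndufb3 (8.03, beside 8.65 to 8.76). It was high in Timp3 (9.02, beside 7.87 to 7.99) and in Ncam1, a cell adhesion gene (7.50, beside 5.74 to 6.02). Irradiated replicate 2 was high in Gja1 (10.53, beside 10.40 to 10.41). Sham replicate 4 was high in Bhlhe41 (8.01, beside 7.54 to 7.65), Alas1 (10.72, beside 10.31 to 10.42) and Aqp6 (8.06, beside 7.76 to 7.80), and low in Btbd35f14 (2.01, beside 2.41 to 2.56). Sham replicate 3 was high in Deptor (6.03, beside 5.71 to 5.75), and sham replicate 5 was low in Myl7 (5.73, beside 9.96 to 10.12).

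For 16 named genes given a fold, the effect of 160 cGy differed from that of the lower Cs doses in the limma contrast between them, with replicate 4 as labelled, without it and with it counted to batch 2. Over all 19494 genes, 219 (1.12%) did so. Scd4, Btbd35f9, Btbd35f20, Arntl, Cd226 and Mtch1 were among the genes named by this same contrast. Mapkapk2 and Serping1 were chosen after their values were seen. The count is therefore a description and no test. Of the clock genes, Arntl differed by -0.89 (adjusted p = 0.0103) and Ciart by 0.74 (adjusted p = 0.0933). Of growth and signalling genes, Irs1 differed by -0.32 (adjusted p = 0.221) and Mapkapk2 by -0.65 (adjusted p = 0.00277). Of muscle genes, Tcap differed by 0.25 (adjusted p = 0.117) and Myl3 by -0.29 (adjusted p = 0.0494). Of metabolic genes, Scd4 differed by 1.15 (adjusted p = 0.0268), the triglyceride synthesis gene Dgat1 by -0.58 (adjusted p = 0.125), the complex IV subunit gene Cox5a by -0.29 (adjusted p = 0.0355), Mtch1 by -0.70 (adjusted p = 0.000108) and Aco1 by -0.34 (adjusted p = 0.094). The proteasome gene Psma6 differed by -0.47 (adjusted p = 0.0103). Of immune genes, Serping1 differed by 0.38 (adjusted p = 0.0547) and Cd226 by -0.87 (adjusted p = 0.105). Of the dim X-linked family, Btbd35f9 differed by 0.91 (adjusted p = 0.0402) and Btbd35f20 by 0.90 (adjusted p = 0.0547).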

How the results depend on the processing

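The count of 1342 DEGs at 160 cGy against Cs sham depended on the fit. It was 44 at an adjusted p < 0.05, 308 with replicate 4 counted to batch 2, 49 without a batch term, 21 with batch 1 arrays only, 78 with batch 1 arrays and without replicate 4 (chosen after seeing the data), 240 with the replicate numbers as a block in place of batch, 4 with only the 160 cGy and sham arrays, 394 with all 72 arrays in the fit, 20 with the values as deposited (1 up and 19 down, beside 607 and 735) and 49 with array medians aligned (28 up and 21 down), and it rose to 1709 with trend and robust moderation and to 1886 among genes that passed the filter on dim signals. Leaving out single hearts gave 634 to 1872, with the lowest count without sham replicate 1, 668 without sham replicate 4 and 839 without sham replicate 3. Against the lower doses, 1514 became 94 at 0.05, 242 with replicate 4 in batch 2, 44 without a batch term, 428 with batch 1 arrays only, 602 with these and without replicate 4, 209 with the replicate block, 227 with all 72 arrays, 13 as deposited, 57 with medians aligned, 1849 with trend and robust moderation, 2023 with the filter on dim signals and 1120 to 1925 without single hearts. The replicate numbers did not pair the hearts: correlations of same-numbered deviations were -0.085, -0.13, 0.10 and -0.069. Against Ti sham, 36 became 1 at 0.05 and 0 as deposited, and 35 to 66 without single hearts, 66 without irradiated replicate 1 and 56 without replicate 3. Against Si sham, 932 became 0 at 0.05 (2477 at an unadjusted p < 0.05 in limma), 0 as deposited, 255 with replicate 4 in batch 2 and 139 to 1358 without single hearts, the lowest without replicate 4. The cell type lists at an exact permutation p < 0.05 numbered 2 and became 0 to 2 without single hearts. The cause of these shifts was not tested.

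As deposited, the median of all genes shifted by -0.43. Directions turned there for Per1 (-0.09), Eif4ebp1 (-0.17), Kcnj2 (-0.03), Ankrd1 (-0.03), Cpt2 (-0.12) and Plin2 (-0.05), which lay above that shift. Myl7, not called, was -0.21 with batch 1 arrays only and in the 2-group fit, -0.79 with batch 1 arrays and without replicate 4, and -0.07 without sham replicate 5, the lowest value without single hearts, the highest being 1.42 without irradiated replicate 2. Of 94 called genes named with a fold, 2 (Arntl and Dbp) passed under every alternative.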
